A study of Mus musculus with 2 samples.

Results

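*Runx1*, *Cbfb*, *Gfi1*, *Spi1*, *Myb* and *Ikzf1* encode 6 regulators of the change from endothelium to blood, measured here in 87 single cells of the mouse yolk sac. The genes were chosen by name and account for 6 of the 23154 genes with a row in the count tables, of which 13206 had a count in any cell. All 6 were detected. The cells were PK44 cells from E10.0 embryos of C57BL/6 background, sorted as CD41- CD43- CD45- CD31+ CD201+ *Kit*+ CD44+, a surface profile used to enrich hemogenic endothelial cells, and no cell carried a transgene or a treatment. They formed 1 labelled group of 2 libraries, with 43 cells in library 1 and 44 in library 2, read by a modified STRT-seq in which each cell is barcoded in its own well and molecules are counted by unique molecular identifiers. The labels do not say whether the libraries came from separate embryos or pools, so every p-value below measures only the spread between these 2 libraries.

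Hemogenic endothelial cells are cells of the vessel wall that become blood. *Runx1* is the DNA-binding factor without which this step does not take place, and *Cbfb* is its partner, which binds no DNA itself but stabilizes *Runx1* on it. *Gfi1* is a repressor that shuts down endothelial genes. *Spi1* (PU.1) is an ETS family factor of myeloid and lymphoid development, *Myb* is needed for definitive blood progenitors, and *Ikzf1* (Ikaros) is a zinc finger factor of lymphoid and other blood cells.

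Total counts per cell ranged from 13218 to 702028 in library 1 (median 141577, sum 8932527) and from 51620 to 956593 in library 2 (median 238898, sum 12706360). The libraries shared 0 cell numbers, so no cell entered both. The transcripts matched the sort in part. *Cdh5* had a count in 87 of 87 cells and *Pecam1*, which encodes CD31, in 86, while *Ptprc*, which encodes CD45, had a count in 3 cells, and *Itga2b*, which encodes CD41, had 10 or more counts in 19. Of the marker genes of other cell types, the T and B cell genes *Cd3e*, *Cd3d*, *Rag1*, *Rag2* and *Pax5* were at 0 in all 87 cells, as were the macrophage genes *C1qa*, *C1qb*, *C1qc*, *Adgre1* and *Cx3cr1*. Other genes of the same lists had counts, namely the B cell genes *Cd79a* and *Cd79b* and the macrophage list's *Mrc1*, *Csf1r* and *Cd68*. Of the megakaryocyte list, *Pf4*, *Gp9*, *Gp1ba* and *Vwf* had counts. 3 cells had 100 or more counts of each of the mesenchymal genes *Col1a1*, *Col1a2*, *Col3a1* and *Lum*. They held 1 to 5 counts of *Runx1*, 1 of *Gfi1* and at most 1 of *Spi1*, and results that rest on them are given with and without them.

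The 6 genes lie on 6 chromosomes of GRCm38 (mm10): *Runx1* at chr16:92601466-92826149 on the minus strand, *Cbfb* at chr8:105170674-105217989 on the plus strand, *Gfi1* at chr5:107716657-107726036 (minus), *Spi1* at chr2:91082390-91115756 (plus), *Myb* at chr10:21124935-21160984 (minus) and *Ikzf1* at chr11:11685003-11772926 (plus). Antisense genes overlap *Runx1*, *Gfi1*, *Myb* and *Ikzf1* in GENCODE M21, and 2 genes on the same strand (*Gm22063* and *Gm24629*) overlap *Cbfb*. None of these had a row of its own in the tables. Whether the counting used the strand is not stated, so reads from an antisense partner cannot be told apart from those of the gene. Reads from a partner on the same strand cannot be told apart either.

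Promoter windows were available for 5 of the 6 genes, at 8 RefSeq start sites. Of the 4 windows that lie within an intron of their own gene, the 3 that hold ETS letters are shown, since *Spi1* is an ETS factor. These are windows of *Runx1*, *Gfi1* and *Ikzf1*. Each is the 250 bases before the start site on the gene's strand (RefSeq, GRCm38.p6), with ETS letters in capitals.
*Runx1*, second start site, chr16:92697330-92697579 (minus): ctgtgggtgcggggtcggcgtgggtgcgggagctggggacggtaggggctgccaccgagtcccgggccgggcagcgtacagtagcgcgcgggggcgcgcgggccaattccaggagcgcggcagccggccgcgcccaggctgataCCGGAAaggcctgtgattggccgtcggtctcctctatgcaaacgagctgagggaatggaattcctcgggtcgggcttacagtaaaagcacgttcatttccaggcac
*Gfi1*, second start site, chr5:107724344-107724593 (minus): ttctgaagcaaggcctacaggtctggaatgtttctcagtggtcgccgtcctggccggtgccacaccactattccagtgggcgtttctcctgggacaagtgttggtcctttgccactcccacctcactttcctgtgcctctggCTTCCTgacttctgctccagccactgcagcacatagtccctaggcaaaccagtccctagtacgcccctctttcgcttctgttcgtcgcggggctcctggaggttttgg
*Ikzf1*, second start site, chr11:11689927-11690176 (plus): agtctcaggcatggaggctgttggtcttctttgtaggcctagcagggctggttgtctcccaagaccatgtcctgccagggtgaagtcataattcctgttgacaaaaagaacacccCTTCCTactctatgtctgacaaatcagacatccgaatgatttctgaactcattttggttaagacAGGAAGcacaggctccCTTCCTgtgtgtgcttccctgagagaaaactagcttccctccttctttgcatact
The capitals mark CCGGAA or AGGAAG on either strand, letters of the kind that *Spi1* and other ETS factors bind. They occur 1 time in the *Runx1* window, 1 time in the *Gfi1* window and 3 times in the *Ikzf1* window shown. Of the windows not shown, the first of *Runx1* and that of *Cbfb* hold them 1 time each. The *Myb* window and the first windows of *Gfi1* and *Ikzf1* hold them 0 times. *Spi1* shared cells with *Cbfb*, whose window holds the letters, and with *Myb*, whose window does not. Whether *Spi1* binds at any of these windows was not tested. They occur at least 1 time in 38.2% of all 32851 RefSeq windows of this length, so a match is common. The RUNX letters TGTGGT or TGCGGT were in 0 of the 8 windows of these genes, against 18.6% of all windows, which says only that the letters are not in these 250 bases.

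Each gene was close to off in some cells and abundant in others. *Runx1* had 0 counts in 19 cells, 1 to 9 in 29 and 10 or more in 39, and the last class held 98.7% of its counts. In the plot of counts per cell, *Spi1* and *Gfi1* show a gap between low and high cells. No cell lay between 7 and 17 counts of *Spi1* or between 4 and 15 of *Gfi1*, while *Cbfb* ran through the range without one. Cells are therefore called positive for a gene at 10 or more counts. In 3′ counts of molecules a value does not grow with transcript length, but capture can differ between genes.

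**Figure D1:**
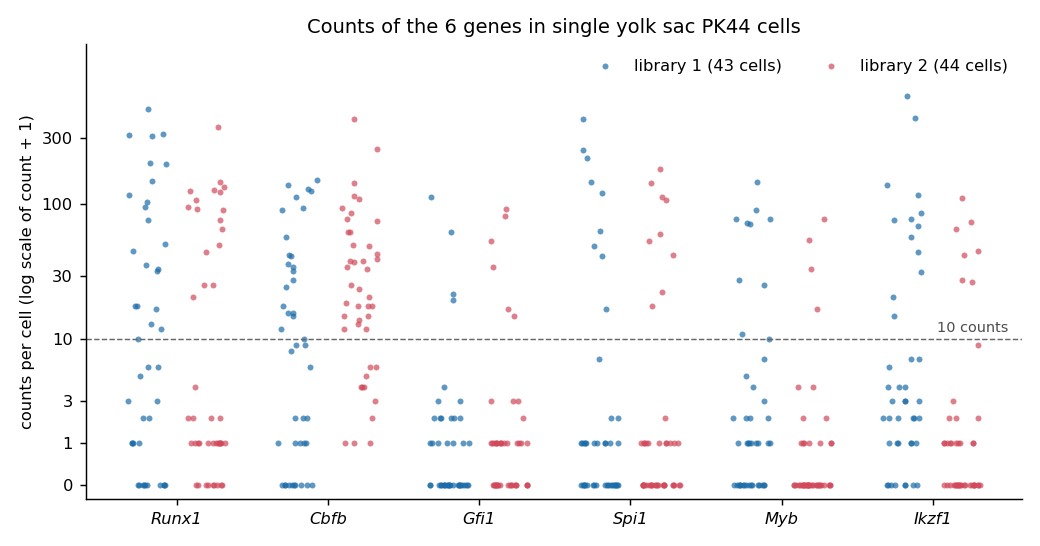
Counts of each of the 6 genes in each cell (vertical axis, log scale of count + 1; each point is 1 cell, blue library 1 with 43 cells and red library 2 with 44 cells; dashed line, 10 counts). Counts of *Spi1* fall into a group at 7 or fewer and a group at 17 or more, and *Cbfb* has the most cells above the line, 54 of 87.

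*Cbfb* was the most widely expressed and *Gfi1* the least. *Cbfb* was positive in 54 of 87 cells (62.1%, exact 95% interval 51.0 to 72.3) and *Runx1* in 39 (44.8%, 34.1 to 55.9). *Ikzf1* followed with 20 cells (23.0%, 14.6 to 33.2), then *Spi1* with 18 (20.7%, 12.7 to 30.7), *Myb* with 14 (16.1%, 9.09 to 25.5) and *Gfi1* with 10 (11.5%, 5.65 to 20.1). The intervals of each pair of neighbours in this order overlap, apart from *Runx1* and *Ikzf1*. Intervals here cover the counting of cells only.

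With any count as the limit, the order was different. *Cbfb* then had 77 cells, *Runx1* 68, *Ikzf1* 57, *Gfi1* 45, *Spi1* 44 and *Myb* 42, and the 35 *Gfi1* cells with 1 to 9 counts moved that gene from the last place. When each cell was thinned to 20000 counts, which left out 1 cell, a count was kept in 56 of 86 cells for *Cbfb*, 47 for *Runx1*, 33 for *Ikzf1*, 22 for *Spi1*, 16 for *Myb* and 16 for *Gfi1*. The share of cells thus depends on the limit and the depth, and the source of the cells with 1 to 9 counts was not tested.

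The libraries differed most in *Ikzf1* and *Myb*. Summed over its cells, *Ikzf1* stood at 203 counts per 1000000 (CPM) in library 1 and 33.4 in library 2 (118 ± 120, SD, n = 2), and 13 and 7 cells were positive. *Myb* stood at 72.5 and 16.1 CPM (44.3 ± 39.9) with 10 and 4 positive cells. *Runx1* was at 300.4 and 136 CPM (218 ± 116) and *Spi1* at 149 and 59.3 (104 ± 63.7).

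*Cbfb* and *Gfi1* were nearly level between the libraries. *Cbfb* was at 142 and 167 CPM (154 ± 17.3, SD, n = 2), although it was positive in 21 of 43 and 33 of 44 cells. *Gfi1* was at 27.7 and 25.3 CPM (26.5 ± 1.63). Both libraries carry the same label, so no test was made between them.

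Among the positive cells, the median count was 91 for *Runx1*, 86 for *Spi1*, 68 for *Ikzf1*, 63.5 for *Myb*, 44.5 for *Gfi1* and 38.5 for *Cbfb*. *Gfi1* was thus low in number of cells as well as in counts per positive cell. The highest single cell held 595 counts of *Ikzf1*, and the highest for *Gfi1* held 113.

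The relatives of these factors were mostly scarcer. *Runx2* was positive in 3 cells and *Runx3* in 1, and the PU.1 relatives *Spib* and *Spic* were at 0 in all 87. *Mybl1* had 1 positive cell and *Mybl2*, a gene of dividing cells, had 18. *Ikzf3* and *Ikzf4* were at 0, whereas *Ikzf2* (Helios) had 19 positive cells, close to the 20 of *Ikzf1*. *Gfi1b*, the close relative of *Gfi1* in red cells and platelets, was positive in 12 cells against the 10 of *Gfi1*. Of the corepressor partners listed, *Chd4* was positive in 71 cells, *Hdac1* in 66, *Cbfa2t3* in 45, *Kdm1a* (LSD1) in 40 and *Hdac2* in 36, while *Rcor1* had 18, *Cbfa2t2* 13 and *Runx1t1* 12.

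*Gfi1*, *Spi1*, *Myb* and *Ikzf1* were found mainly in cells that also held *Runx1*. All 10 *Gfi1*-positive cells were *Runx1*-positive, as were 15 of 18 *Spi1* cells, 12 of 14 *Myb* cells and 18 of 20 *Ikzf1* cells. Among the 48 cells without *Runx1* at this limit, 0 were *Gfi1*-positive, which allows a share of up to 6.25% at 3 cells of 48 and 7.40% by the exact upper limit, 3 were *Spi1*-positive (6.25%, exact interval 1.31 to 17.2), 2 *Myb*-positive (4.17%, 0.509 to 14.3) and 2 *Ikzf1*-positive (4.17%, 0.509 to 14.3). *Runx1* was also found without the others, in 14 of its 39 cells. The limit is in raw counts, so it is harder to reach in shallow cells. The shallowest cell, in library 1, held 4 counts of *Gfi1* and 0 of *Runx1* among 13218 counts. That is 303 CPM of *Gfi1*, the highest in its library, yet the cell is not *Gfi1*-positive at this limit.

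In both libraries most cells positive for *Gfi1*, *Spi1*, *Myb* or *Ikzf1* were also *Runx1*-positive. *Gfi1* was within *Runx1* cells in 4 of 4 and 6 of 6 cells, *Spi1* in 8 of 9 and 7 of 9, *Myb* in 8 of 10 and 4 of 4, and *Ikzf1* in 11 of 13 and 7 of 7. Positive cells were also deeper. The median total was 284710 counts in *Runx1*-positive and 143954 in the other cells, and the part of depth was addressed by thinning. At 20000 counts per cell, 14 of 16 cells with *Gfi1* kept a count of *Runx1* (87.5%), against 47.1% of the cells without *Gfi1*. For *Spi1* the shares were 72.7% and 48.4%, for *Ikzf1* 66.7% and 47.2%, and for *Myb* 62.5% and 52.9%; these shares are over both libraries together. That thinned count was chosen after the data had been seen. It leaves out the shallowest cell, which held *Gfi1* without *Runx1*.

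**Figure D2:**
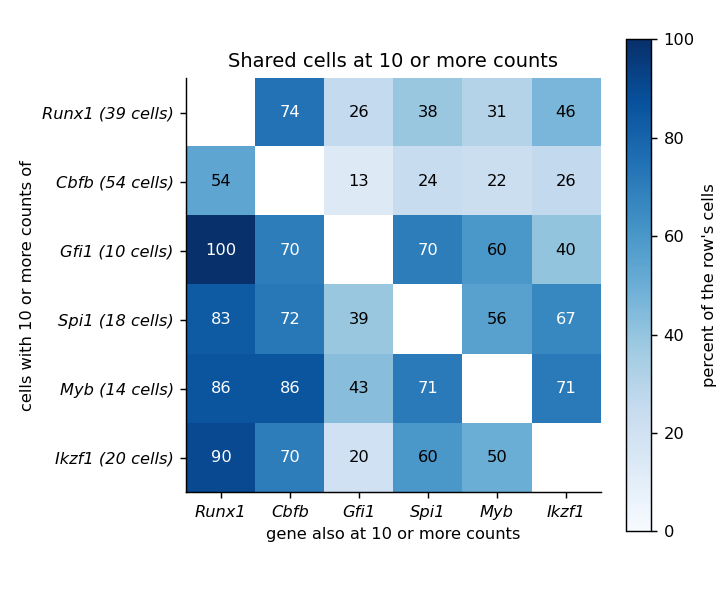
Percent of the cells with 10 or more counts of the row's gene that also had 10 or more of the column's gene, over both libraries (87 cells; the number of cells of each row is in its label). The *Runx1* column is dark for *Gfi1* (100%), *Ikzf1* (90%), *Myb* (86%) and *Spi1* (83%), and the *Gfi1* column is light.

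The factors other than *Runx1* overlapped as well. *Spi1* and *Ikzf1* shared 12 cells (66.7% of the *Spi1* and 60% of the *Ikzf1* cells), *Spi1* and *Myb* shared 10 (55.6% and 71.4%), and *Myb* and *Ikzf1* shared 10 (71.4% and 50.0%). *Gfi1* shared 7 cells with *Spi1* (70.0% of the *Gfi1* cells) and 6 with *Myb* (60%). It shared only 4 with *Ikzf1* (40.0%, exact interval 12.2 to 73.8), against 20.8% (12.4 to 31.5) of the *Gfi1*-negative cells, and these intervals overlap.

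Counting how many of the 5 DNA-binding factors a cell held, 43 cells held none, 17 held 1, 10 held 2, 8 held 3, 5 held 4 and 4 held all 5. The most frequent combinations were *Runx1* alone (14 cells), *Runx1* with *Ikzf1* (5), *Runx1* with *Spi1* and *Ikzf1* (4) and all 5 together (4, with 2 in each library). *Runx1* was present in 39 of the 44 cells that held any factor. The 5 exceptions held *Spi1* (2 cells), *Myb* (1), *Myb* with *Ikzf1* (1) and *Spi1* with *Ikzf1* (1).

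*Cbfb* was also frequent in cells without *Runx1* at this limit. It was positive in 29 of 39 *Runx1*-positive cells (74.4%, exact interval 57.9 to 86.96) and in 25 of the 48 others (52.1%, 37.2 to 66.7). The difference was wider in library 1, with 15 of 22 against 6 of 21 cells, while in library 2 the counts were 14 of 17 against 19 of 27. *Cbfb* was positive in 70.0% to 85.7% of the cells positive for *Gfi1*, *Spi1*, *Myb* or *Ikzf1*, against 57.5% to 61.0% of the cells negative for each.

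Rank correlations over the cells, each thinned to 20000 counts, within each library are given as a description without a test, since the 42 and 44 cells share a library each. By the lower of their values in the libraries, the strongest pairs were *Runx1* with *Spi1* (Spearman 0.32 in library 1 and 0.29 in library 2), *Runx1* with *Gfi1* (0.26 and 0.43), *Gfi1* with *Myb* (0.25 and 0.29), *Spi1* with *Myb* (0.24 and 0.43) and *Spi1* with *Ikzf1* (0.21 and 0.41). The pairs of *Myb* with *Runx1* and *Ikzf1* differed between the libraries, at 0.01 and 0.22 with *Runx1* and -0.04 and 0.38 with *Ikzf1*. *Runx1* with *Ikzf1* was at 0.19 and 0.21, *Gfi1* with *Spi1* at 0.16 and 0.26 and *Gfi1* with *Ikzf1* at -0.07 and 0.00, and the 5 pairs of *Cbfb* lay between -0.19 and 0.12. The ranking depended on the scale. *Runx1* with *Ikzf1* was at 0.33 and 0.44 on CPM and at 0.36 and 0.44 at 10000 counts. By the lower value it was the strongest pair on both of these scales. *Gfi1* with *Myb* was at 0.16 and 0.08 on CPM, and *Runx1* with *Gfi1* in library 1 at 0.04 on CPM and -0.05 at 10000 counts. The factors other than *Cbfb* also correlated with the total counts of a cell, at 0.13 to 0.39.

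To compare groups of cells over libraries, the cells of each library were split at the library's median CPM of a factor, the counts of the high and of the low cells were summed, and the 4 sums were fitted with edgeR's quasi-likelihood test with the library as a block. A gene was called at a Benjamini-Hochberg adjusted p under 0.05 over all genes tested. Values below are CPM in the sums, high cells before low cells, and log2 fold changes (log2FC) with their standard error. The split gene takes no part in its own comparison. With 4 sums and 1 residual degree of freedom the spread was in effect that of all genes together, and the 6 splits reuse the same 87 cells, so they are not independent of each other.

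*Ikzf1* was the one member that passed the test at the median splits. Between *Runx1*-high and *Runx1*-low cells, *Ikzf1* stood at 268 against 86.99 CPM in library 1 and 53.8 against 2.13 in library 2, a log2FC of 2.98 ± 0.64 (edgeR, adjusted p = 0.000675). Between *Spi1*-high and *Spi1*-low cells it stood at 285 against 72.7 and 53.5 against 1.77, a log2FC of 3.25 ± 0.61 (edgeR, adjusted p = 0.000107). High cells were higher in both libraries in each case. The share of all genes called was 1.56% in the *Runx1* split, where 1 of 5 other members was called, and 0.498% in the *Spi1* split, again with 1 of 5. Both calls were lost when cells were thinned to 20000 counts first (log2FC 1.83 and 2.70; adjusted p = 0.324 and 0.613) and without the library block (log2FC 1.86 and 2.19; adjusted p = 0.978 and 1.00).

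*Spi1* and *Gfi1* were higher in *Runx1*-high cells of both libraries without passing the test. *Spi1* stood at 180 against 98.1 CPM and 89.2 against 12.996 (log2FC 1.81 ± 0.61, adjusted p = 0.125 by edgeR). *Gfi1* stood at 36.7 against 11.5 and 39.5 against 3.49 (2.57 ± 1.57, adjusted p = 0.751).

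*Myb* went opposite ways in the libraries, with 53.0 against 112 CPM in library 1 and 25.6 against 1.36 in library 2. *Cbfb* was not called, at 137 against 158 and 175 against 149 CPM (log2FC 0.01 ± 0.46). The standard error leaves room for a change in either direction, so an equal level is not shown.

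*Runx1* in turn was higher in *Spi1*-high cells of both libraries, at 393 against 157 and 180 against 64.8 CPM (log2FC 1.40 ± 0.41, adjusted p = 0.0862 by edgeR). The median of *Spi1* is about 1 count, so this split placed cells with single counts among the high cells. When *Spi1*-positive cells (10 or more counts, 9 in each library) were set against all others, *Runx1* stood at 460 against 203 and 259 against 81.7 CPM and passed the test (log2FC 1.42 ± 0.36, edgeR adjusted p = 0.0341). *Ikzf1* passed as well (421 against 64.1 and 70.4 against 17.2 CPM; log2FC 2.38 ± 0.48, adjusted p = 0.00369). In that comparison 1.13% of all genes were called, and 2 of 5 members. Depth differed here too, with a median of 391016 and 427674 counts in *Spi1*-positive cells against 108625 and 218534 in the others. Its part in these calls was not tested. *Gfi1* was at 56.9 against 9.05 and 61.4 against 9.74 CPM (log2FC 2.65 ± 1.13) and *Myb* at 96.6 against 58.4 and 51.3 against 1.08 (2.99 ± 1.13), and neither passed (adjusted p = 0.414 and 0.279).

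Seen from *Ikzf1*, *Spi1* was the partner that stood out. At the median split *Spi1* was at 207 against 71.4 and 85.5 against 16.2 CPM in *Ikzf1*-high and *Ikzf1*-low cells (log2FC 1.96 ± 0.58, adjusted p = 0.404 by edgeR). Between *Ikzf1*-positive cells (13 and 7) and the others it was at 256 against 55.8 and 140 against 21.3 CPM and passed (log2FC 2.45 ± 0.52, edgeR adjusted p = 0.0016). That comparison called 1.59% of all genes and 1 of 5 members. *Runx1* there was at 418 against 200.3 and 227 against 93.0 CPM (log2FC 1.18 ± 0.37, edgeR adjusted p = 0.0993). The *Ikzf1*-positive cells were deeper, with a median of 285167 and 559676 counts against 100538 and 220901. The part of depth in this comparison was not tested.

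In the splits by *Gfi1*, *Myb* and *Cbfb* no other member was called. Between *Myb*-high and *Myb*-low cells *Gfi1* was higher in both libraries (42.8 against 9.12 and 54.6 against 9.05 CPM; log2FC 2.41 ± 1.14, adjusted p = 0.844 by edgeR). Between *Gfi1*-high and *Gfi1*-low cells *Ikzf1* was lower in both (84.7 against 397 and 17.6 against 50.6 CPM; -1.88 ± 0.43, unadjusted p = 0.000531 in edgeR and adjusted p = 1.00). Most *Gfi1*-high cells at this split held 1 to 4 counts, and too few cells were positive for a fit at 10 counts (4 in library 1), so this comparison says little about cells with abundant *Gfi1*.

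**Figure D3:**
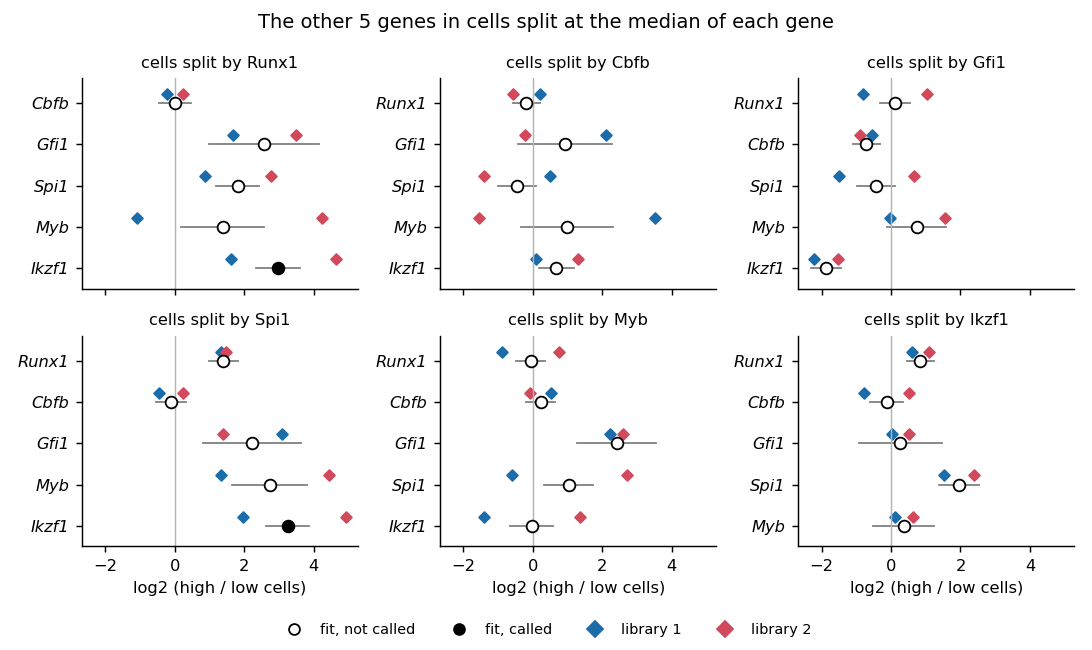
Log2 ratio of each of the other 5 genes between high and low cells, split at the library's median of the gene named above each panel (circles, edgeR fit with standard error; filled, adjusted p under 0.05; diamonds, the ratio in each library). *Ikzf1* is filled in the *Runx1* (2.98) and *Spi1* (3.25) panels, and the diamonds of *Myb* lie on opposite sides of 0 in the *Runx1* panel.

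The endothelial genes ran against *Runx1*, *Spi1*, *Myb* and *Ikzf1*. The 15 genes of the study's endothelial score were all lower in *Runx1*-high cells, with a median log2FC of -1.60, against 0.07 over all genes tested. The study took these genes from earlier work on vessels. At this split *Runx1*-high cells of library 2 held as few as 1 count of *Runx1*, and *Runx1*-low cells of library 1 up to 13. Of the 15, 7 passed the test as lower and 0 as higher, while 1.19% of all genes were called lower. In 28 other genes of endothelium, 26 were lower, 12 were called lower and the median log2FC was -1.18.

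Gap junction and Notch pathway genes of arteries were among the genes that fell. *Gja4* (connexin 37) stood at 58.7 CPM in *Runx1*-high against 454 in *Runx1*-low cells of library 1 and at 252 against 974 in library 2 (log2FC -2.45 ± 0.35, edgeR adjusted p = 3.04e-09). *Gja5* (connexin 40) stood at 36.6 against 301 and 185 against 1239 CPM (-2.89 ± 0.35, adjusted p = 4.17e-13). Both were lower in the high cells of both libraries, although the levels of the 2 libraries differed. *Dll4*, a Notch ligand, stood at 13.2 against 202 and 65.6 against 188 CPM (-2.71 ± 0.57, adjusted p = 0.000566), and *Hey1*, a Notch target, was also called lower (log2FC -1.77), as was the artery ligand *Efnb2* (-1.59).

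Receptors of vessel growth fell too. *Nrp1*, the VEGF co-receptor CD304, stood at 341 against 837 and 367 against 1055 CPM (log2FC -1.41 ± 0.30, edgeR adjusted p = 0.000839). *Kdr*, the main VEGF receptor, stood at 168 against 834 and 416 against 782 CPM (-1.61 ± 0.33, adjusted p = 0.000241), and *Tek* (TIE2) at 191 against 419 and 213 against 512 (-1.20 ± 0.35, adjusted p = 0.0461). In every case both libraries went the same way.

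Also called lower were the junction genes *Cdh5* (log2FC -1.20) and *Cldn5* (-1.30), *Sox17* (-2.12), a factor of arterial endothelium, and the scavenger and hyaluronan receptors *Stab1* (-2.34), *Stab2* (-1.91) and *Lyve1* (-1.21). *Pecam1*, part of the sort, was not called (-0.56). Mesenchymal markers fell with them. Their summed level was 53.0 and 23.4 CPM in *Runx1*-high against 2282 and 795 in *Runx1*-low cells, and the 3 collagen-rich cells were on the low side. Without those 3 cells, 149 genes were called in place of 166.

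Genes linked with emerging blood rose with *Runx1*. The study's 8 hematopoietic genes, also taken from earlier work, include *Runx1* itself, and the other 7 were all higher in *Runx1*-high cells of both libraries, with a median log2FC of 2.13. Of them 3 were called higher, while 0.376% of all genes were. *Adgrg1* (GPR56), a receptor of blood stem cells, stood at 309 against 141 and 271 against 25.99 CPM (log2FC 2.25 ± 0.47, edgeR adjusted p = 0.000404). *Bcl11a*, a factor of lymphoid and red cell development, stood at 221 against 95.9 and 162 against 26.4 (1.91 ± 0.52, adjusted p = 0.0224), and *Neurl3* at 278 against 205 and 181 against 12.0 (2.13 ± 0.52, adjusted p = 0.00628).

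Of 25 genes of blood cell surface and function, 20 were tested, 16 were higher and 2 were called higher, where 0.376% of all genes were. Only 11 of the 20 had a count in all 4 sums and a ratio of the same sign in both libraries. Over the genes with a ratio, the median log2 ratio was 0.56 in library 1 and 2.60 in library 2. *Kit*, the stem cell factor receptor by which the cells were sorted, stood at 258 against 124 and 130 against 17.8 CPM (log2FC 1.95 ± 0.52, edgeR adjusted p = 0.0175). *Coro1a*, an actin regulator of blood cells, stood at 263 against 65.0 and 240 against 7.18 (3.49 ± 0.56, adjusted p = 3.79e-07). The 6 factors shared by blood and endothelium (*Tal1*, *Lyl1*, *Lmo2*, *Gata2*, *Fli1* and *Erg*) had a median log2FC of 0.03, with 0 calls in edgeR, 1 at an unadjusted p under 0.05 and 0 calls in DESeq2.

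Over all genes, 40 were called higher and 126 lower in *Runx1*-high cells (1.56% of 10629). Depth moved with the split, since the median total was 260240 and 271734 counts in *Runx1*-high against 95376 and 213444 in *Runx1*-low cells. With cells thinned to 20000 counts first, 66 genes were called, and without the library block 1. The part of depth in the calls was not tested further.

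The 5 called genes with the largest rise were *Rpp40*, *Sac3d1*, *Nln*, *Cited1* and *Pdk3*. *Rpp40* belongs to the ribonuclease P complex that trims tRNA, and *Cited1* is a transcription coregulator. *Rpp40* had 73.9% of its counts in 3 cells, and 1 and 0 counts in the *Runx1*-low sums. *Cited1* stood at 86.6 against 2.95 and 51.8 against 1.55 CPM (log2FC 4.95 ± 1.27, edgeR adjusted p = 0.0115), with 69.3% of its counts in 3 cells. *Pdk3*, a kinase of pyruvate dehydrogenase, was spread over 17 positive cells (60.3 against 1.31 and 68.7 against 4.27 CPM; 4.68 ± 1.32, adjusted p = 0.0314). The 5 with the largest fall were *Frk*, *Fam81a*, *Plxnb1*, *Tdo2* and *Vcan*, and these also rested on few cells. *Fam81a* had 100% of its counts in 3 cells and *Plxnb1* 97.3%, and 98.3% of the counts of *Vcan* lay in the 3 collagen-rich cells. *Frk* and *Fam81a* had 0 counts in the *Runx1*-high sums, so no fold is given.

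In the split by *Spi1* endothelial genes were lower as well. In *Spi1*-high cells 15 of the study's 15 endothelial genes were lower (median log2FC -1.38, against 0.07 over all genes) and 4 were called, and 28 of 28 other endothelial genes were lower (median -1.03) with 7 called, where 0.366% of all genes were called lower. *Gja5* stood at 23.7 against 309 and 400.2 against 922 CPM (log2FC -2.43 ± 0.35, edgeR adjusted p = 3.35e-08) and *Cldn5* at 207 against 719 and 587 against 1499 (-1.57 ± 0.27, adjusted p = 1.33e-05). *Igfbp3*, a secreted binding protein of growth factors, was called here (22.6 against 405 and 153 against 198; -2.24 ± 0.49, adjusted p = 0.00263), though the fall was small in library 2.

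Higher in *Spi1*-high cells were 14 called genes (0.132% of all), and 3 of the study's 8 hematopoietic genes were among them. *Coro1a* stood at 276 against 57.8 and 236 against 9.23 CPM (log2FC 3.43 ± 0.52, edgeR adjusted p = 1.56e-07). *Ikzf2*, the relative of *Ikzf1*, stood at 233 against 33.1 and 68.9 against 2.36 (3.74 ± 0.66, adjusted p = 2.46e-05). *Dctpp1*, an enzyme that clears modified nucleotides, stood at 384 against 69.3 and 374 against 77.7 (2.37 ± 0.40, adjusted p = 5.45e-06). The other genes named by size were *Rpp40*, with 73.9% of its counts in 3 cells, and, among those that fell, *Fam81a*, *Pkdcc*, *Plac1*, *Npnt* and *Sox17*. Mesenchymal markers were uneven in this split (814 against 898 and 536 against 30.04 CPM), and *Col1a1* and *Col1a2* were called higher at the median but lower between *Spi1*-positive cells and the rest. Without the 3 collagen-rich cells 34 genes were called in place of 53. *Spi1*-high cells were deeper (median 245523 and 256243 counts against 98687 and 218534), and 0 genes were called by edgeR in thinned cells or without the library block, with 381 and 320 at an unadjusted p under 0.05.

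A second comparison set the deeper *Spi1*-positive cells against the rest. Of 14 tested genes of the study's list all were lower and 6 were called, with a median log2FC of -2.11, and of the 28 others all were lower and 10 were called. Over all 10471 genes tested, 75 were called lower and 43 higher, and the median log2FC was -0.09. *Nrp1* stood at 121 against 773 and 268 against 785 CPM (log2FC -2.11 ± 0.31, edgeR adjusted p = 2.55e-05) and *Stab2* at 6.004 against 189 and 37.8 against 530.1 (-4.35 ± 0.47, adjusted p = 5.62e-08). Of the blood genes, *Kit*, *Coro1a*, *Rac2* and *Alox5ap* were called higher. *Rac2*, a GTPase of blood cells, stood at 119 against 34.9 and 151 against 15.9 CPM (2.51 ± 0.65, adjusted p = 0.0402).

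For *Ikzf1* the result depended on where the cells were split. At the median, 14 of 15 study genes were lower (median log2FC -1.02) with 0 called by edgeR or DESeq2 and 8 at an unadjusted p under 0.05, and 2 genes of all were called (0.0188%), both lower. These were *Adgrg6*, an adhesion receptor (1.15 against 130 and 31.1 against 162 CPM; -4.31 ± 0.86, edgeR adjusted p = 0.0445), and *Clec14a*, an endothelial lectin (121 against 643 and 301 against 728; -1.84 ± 0.34, adjusted p = 0.0149). Without the library block edgeR called 0, with 243 at an unadjusted p under 0.05. Between the deeper *Ikzf1*-positive cells and the rest, 165 of 10377 genes were called (1.59%), 33 higher and 132 lower. Among them were 5 of 14 study genes and 15 of 28 other endothelial genes. *Gja5* stood at 8.52 against 239 and 139 against 826 CPM (-3.62 ± 0.41, adjusted p = 1.08e-10) and *Nrp1* at 112 against 886 and 306 against 801 (-2.18 ± 0.31, adjusted p = 3.89e-07). The platelet and white cell gene *Plek* was called higher (112 against 11.4 and 55.4 against 2.51; 3.86 ± 1.00, adjusted p = 0.0179), with *Kit*, *Coro1a* and *Rac2*.

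*Myb*-high cells showed the same direction with few calls. All 15 study genes were lower (median log2FC -1.41) and 26 of 28 others (median -0.96), but 0 of either list passed in edgeR. At an unadjusted p under 0.05 there were 9 and 15, and DESeq2 called 3 and 5. Of all genes 5 were called (0.0473%). *Coro1a* stood at 302 against 56.5 and 320.1 against 52.7 CPM (log2FC 2.51 ± 0.40, edgeR adjusted p = 0.0407). *Srm*, which makes spermidine, stood at 398 against 116 and 503 against 104 (2.03 ± 0.34), and *Dapp1*, an adaptor of B cell signalling, at 202 against 22.4 and 120.3 against 9.64 (3.40 ± 0.58). *Stmn2* (7.26 against 193 and 12.9 against 137; -4.06 ± 0.63) and *8430408G22Rik* (4.84 against 334 and 94.8 against 495; -4.11 ± 0.68) fell. By other choices 49 genes were called without the 3 collagen-rich cells and 0 without the library block, where 360 had an unadjusted p under 0.05.

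The splits by *Gfi1* and *Cbfb* called no endothelial gene, by edgeR or DESeq2, with 1 and 3 of the study's 15 at an unadjusted p under 0.05. In *Gfi1*-high cells, which held a median of 2 and 1 counts of *Gfi1* in libraries 1 and 2, 9 of 15 study genes were higher and the median log2FC was 0.19. The 3 genes called (0.0281% of all) were *Col3a1*, *Col1a1* and *Col1a2*, with 317 against 7.89 and 135 against 4.33 CPM for *Col3a1* (log2FC 5.14 ± 0.53, edgeR adjusted p = 0.00025). The 3 collagen-rich cells, each with 1 count of *Gfi1*, held 91.9% to 95.4% of the counts of these genes, and without those cells 0 genes were called by edgeR, with 359 at an unadjusted p under 0.05. Across *Cbfb*-high and *Cbfb*-low cells 0 genes were called by edgeR (0%), with 318 at an unadjusted p under 0.05 and 9 called by DESeq2. All 15 study genes were lower in *Cbfb*-high cells by the fit (median log2FC -0.62), but the median ratio was -1.25 in library 1 and 0.00 in library 2.

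**Figure D4:**
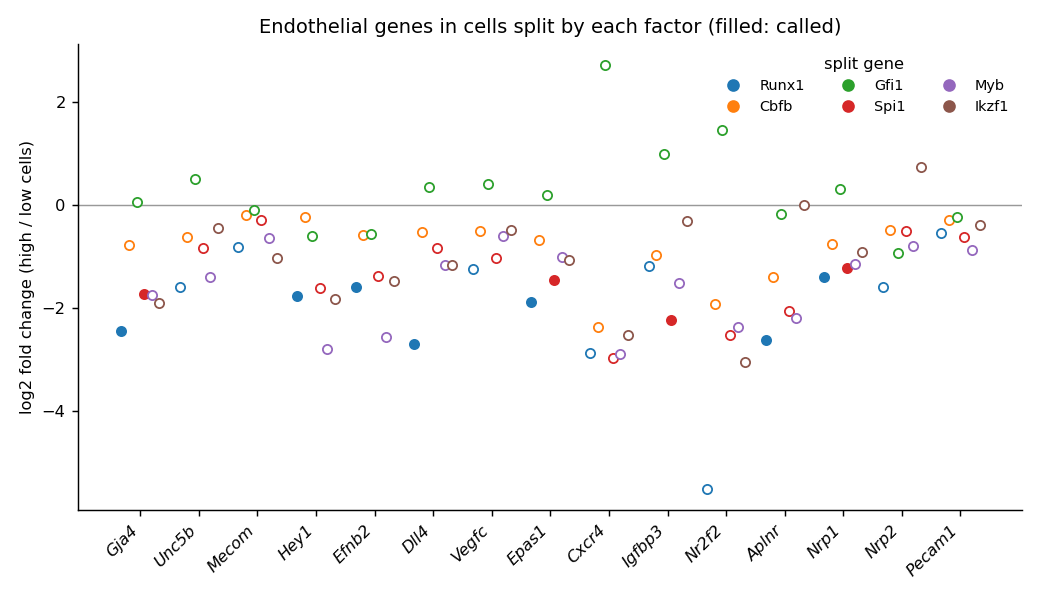
Log2 fold change of the 15 endothelial genes that the study names, between high and low cells of the median split by each of the 6 factors (colours; filled points passed an edgeR adjusted p of 0.05). Points of the *Runx1*, *Spi1*, *Myb* and *Cbfb* splits all lie below 0, with 7, 4, 0 and 0 filled, while *Gfi1* points scatter around 0 with a median of 0.19. The *Gfi1*-high cells of this split held a median of 2 and 1 counts of *Gfi1* in libraries 1 and 2.

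Cells with several factors had a low endothelial level in both libraries. The endothelial level of a cell was taken as the mean log2(count + 1) of the 15 genes at 20000 counts. In library 1 its median was 1.46 in cells with none of the 5 factors, 1.06 with 1, 0.62 with 2, 0.84 with 3, 0.35 with 4 and 0.37 with 5. In library 2 the medians were 2.01, 1.51, 1.54, 0.31, 0.51 and 0.80, the last from 2 cells at 0 and 1.60. With 3 or more factors the medians were below those with 0 or 1 in both libraries, but single cells overlap: in library 1, cells with none ranged from 0.85 to 2.58 and cells with 3 or more from 0.13 to 1.10.

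**Figure D5:**
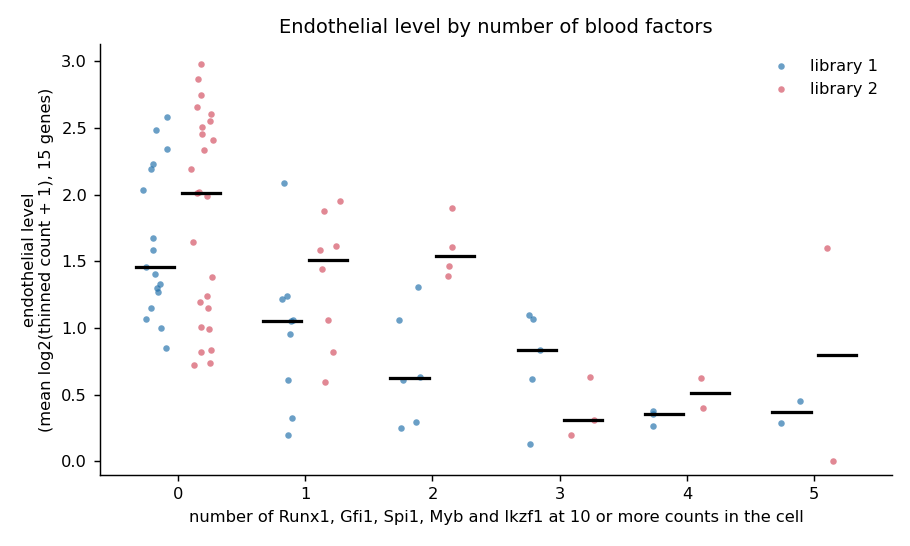
Endothelial level (vertical axis, mean log2(count + 1) of 15 genes in cells thinned to 20000 counts) by the number of *Runx1*, *Gfi1*, *Spi1*, *Myb* and *Ikzf1* at 10 or more counts (horizontal axis; points, cells; bars, medians; blue library 1, red library 2). The bars fall from 1.46 and 2.01 at 0 factors to 0.35 and 0.51 at 4, and 1 of the 4 cells with all 5 factors stays high, at 1.60.

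Single genes showed this in the same cells. *Nrp1* had a median of 859 CPM in the 43 cells with none of the factors and 16.0 in the 17 cells with 3 or more, and *Kdr* 820.4 and 28.1. *Kit* went the other way, from 4.82 to 339 CPM. *Cdh5* stayed detectable, with a median of 805 CPM without factors and 175 with 3 or more, where the lowest cell still had 28.6. The medians of *Cbfb* were 59.5 and 89.5 CPM.

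Cells with 3 or more factors were deeper, with a median of 427674 counts against 134030, so factors were also counted at 1 or more counts in thinned cells. The medians of the endothelial level were then 1.43, 1.43, 0.98 and 0.54 in library 1 for 0, 1, 2 and 3 or more factors, and 2.11, 1.51, 1.60 and 0.36 in library 2. The first class of library 1 held 4 cells. This count was added after the data had been seen.

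As rank correlations within a library, the endothelial level fell with *Ikzf1* (Spearman -0.52 in library 1 and -0.36 in library 2), *Runx1* (-0.31 and -0.49), *Myb* (-0.38 and -0.43) and *Spi1* (-0.32 and -0.41). With *Gfi1* it was -0.09 and -0.14, and with *Cbfb* -0.11 and 0.27. The 28 other endothelial genes gave -0.29 and -0.59 for *Runx1* and -0.38 and -0.46 for *Spi1*. These correlations are over 42 and 44 cells of 1 library each and carry no test. At 10000 counts *Gfi1* was at -0.14 and -0.40, and on CPM at 0.05 and 0.06. The *Gfi1*-positive cells, too few for a fit, had a lower median endothelial level than the other cells. It was 0.41 against 1.07 in library 1 (4 cells) and 1.01 against 1.60 in library 2 (6 cells). The *Gfi1*-positive cells were also deeper, with a median total of 337584 and 383729 counts against 128053 and 219718. The part of depth was not tested.

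Among the single endothelial genes, the lowest correlation with *Runx1* was that of *Tek*, at -0.43 in library 1 and -0.63 in library 2. For *Spi1* it was *Cldn5* in library 1 (-0.42) and *Kdr* in library 2 (-0.56). Over the 12 study genes frequent enough to be ranked, the median correlation with *Runx1* was -0.18 and -0.33, against 0.07 and 0.05 over 4340 genes.

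The genes most like each factor were picked by the lower of its 2 library correlations, among 4340 genes with a count in at least 20% of the thinned cells of each library. For *Runx1* these were *Cnbp* (0.49), *Pla2g4a* (0.48), *Cct3* (0.47), *Nhp2* (0.46) and *Erdr1* (0.43). For *Spi1*, *Coro1a* led (0.46), followed by *Ssbp1* (0.43), *Cln6* (0.43), *Mef2c* (0.42) and *Rpf1* (0.41). For *Ikzf1* they were *Phgdh* (0.48), *Gpatch4* (0.46), *Kit* (0.44), *Csk* (0.44) and *Nle1* (0.41).

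The likeness was weaker for the scarcer genes and for *Cbfb*. *Myb* was most like *Ndufaf4* (0.41), *Gtf2e2* (0.40), *Gripap1* (0.38), *Mphosph10* (0.38) and *Ube2q1* (0.37). *Gfi1* was most like *Polr2f* (0.36), *Cenpw* (0.35), *Ehmt1* (0.33), *Gusb* (0.33) and *Arl6ip4* (0.33), and *Cbfb* most like *Hiat1* (0.41), *Snx2* (0.34), *Lamp2* (0.28), *Rbm27* (0.28) and *Wnk1* (0.27). In sparse counts the highest of 4340 values is high by selection, so these lists are a description.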

How the data were processed

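Single cells were read by a modified STRT-seq. The authors assigned reads to cells by barcode, trimmed them and mapped them to the mm10 transcriptome (UCSC) with HISAT2 2.1.0. They counted uniquely placed reads with HTSeq and collapsed UMI duplicates, and deposited counts of molecules per gene and cell without normalization. Whether all duplicates were removed cannot be checked from the counts. They removed cells with few genes or transcripts, and cells with very many reads or genes as possibly more than 1 cell, so no doublet caller was run here. All 87 cells were used.

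The members and lists were chosen with earlier results of these data known. Shares carry exact (Clopper-Pearson) 95% intervals. Cells were thinned to 20000 counts for correlations (Spearman, scipy 1.17.1). High and low cells per library (at least 5 in each) were summed and tested with edgeR 4.0.16 in R 4.3.3 (filterByExpr, TMM, quasi-likelihood, library block, Benjamini-Hochberg). The sums of a library share its cells' preparation, so the library pairs them by construction. DESeq2 1.42.0, RLE scaling, no filter, no block, thinned sums, a split at 10 counts and leaving out 3 collagen-rich cells were alternatives. The code was tested on simulated data. Genes named are the 6 members, listed genes that were called or had the lowest p of their list, the 5 called genes of largest change per direction and split, and the 5 genes most like each member.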

Additional observations from a re-analysis of the deposited data

How the results depend on the processing

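Of the log2 fold changes of members under the alternatives, refitted on both libraries, 176 kept their direction and side of the threshold, 4 lost a call, 2 gained one and 10 reversed. Between *Runx1*-high and *Runx1*-low cells, *Cbfb* was at -0.016 with RLE, -0.016 with DESeq2, -0.56 in thinned cells and -0.16 without the collagen-rich cells, and *Myb* at -0.53 with no replicate block. *Runx1* was at 0.17 between *Cbfb*-positive cells (10 or more counts) and the rest, -0.28 in the *Gfi1* split with no replicate block, and 0.20 in the *Myb* split without the collagen-rich cells. *Ikzf1* was at -0.17 in the *Cbfb* split and *Spi1* at 1.17 in the *Gfi1* split, both in thinned cells. The causes were not tested.

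The counts of genes called moved more. With no replicate block, which ignores that sums of a library pair, the splits by *Runx1*, *Gfi1*, *Spi1*, *Myb* and *Ikzf1* called 1, 0, 0, 0 and 0 genes, against 166, 3, 53, 5 and 2, with 588, 218, 320, 360 and 243 at an unadjusted p under 0.05. With DESeq2 the counts were 307 for *Runx1*, 9 for *Cbfb*, 11 for *Gfi1*, 76 for *Myb* and 23 for *Ikzf1*. Without the filter on low counts they were 3 for *Cbfb*, 68 for *Myb* and 16 for *Ikzf1*, and with RLE 5 for *Ikzf1*. In thinned cells they were 66 for *Runx1*, 5 for *Cbfb*, 0 for *Gfi1*, 0 for *Spi1* (209 and 381 at an unadjusted p under 0.05) and 83 for *Ikzf1*. Split at 10 counts they were 2 for *Cbfb*, 118 for *Spi1* and 165 for *Ikzf1*. Without the collagen-rich cells they were 0 for *Gfi1*, 34 for *Spi1*, 49 for *Myb* and 13 for *Ikzf1*. The causes were not tested. The split at 10 counts for *Gfi1* and *Myb* and the thinned split for *Myb* could not be fitted, with 4 cells in a group. Leaving out a library left 1 sum a group and no test, so each library's ratio was taken instead, and 45 of these had the sign of the fit and 15 the opposite sign. Of the rank correlations, 49 stayed within the spread between libraries and 20 moved, and 18 shares of cells moved with the limit or depth.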

Other observations

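Of 20 genes of the cell cycle, 0 were called in any of the 6 median splits by edgeR. At an unadjusted p under 0.05 there were 1 to 7 a split, and DESeq2 called 1, in the split by *Cbfb*. Their median log2FC was 0.49 in the split by *Runx1*, 0.41 by *Cbfb*, 0.18 by *Spi1*, 0.17 by *Ikzf1*, 0.02 by *Gfi1* and -0.33 by *Myb*. *Plk1*, a mitotic kinase, came nearest to the threshold, at 92.5 against 4.11 CPM in library 1 and 188 against 54.4 in library 2 between *Cbfb*-high and *Cbfb*-low cells (log2FC 3.04 ± 0.68, edgeR adjusted p = 0.0554).

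Single markers of other lists were called lower in *Runx1*-high cells, while other tested members of the same lists were higher. *Mrc1*, a receptor of macrophages and of some endothelium, and *Vwf*, a gene of endothelium and megakaryocytes, were both called lower (edgeR adjusted p = 0.0349 and 0.00903). Of 2 tested macrophage markers 1 was higher and 1 lower, and of 3 tested megakaryocyte markers 2 were higher and 1 lower. The summed macrophage list stood at 66.1 and 146 CPM in *Runx1*-high and 303 and 189.9 in *Runx1*-low cells, with *C1qa*, *C1qb*, *C1qc*, *Adgre1* and *Cx3cr1* at 0 in all 4 sums. The summed erythroid list stood at 24.5 and 43.7 CPM against 0.315 and 21.4, with *Hba-a1* and *Hba-a2* at 0 in all 4 sums.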
